A study of Mus musculus with 2 samples.

Results

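The miR-148 and miR-152 family of microRNAs was described in mouse gastrocnemius, the large calf muscle. Its members were taken by name, as the loci that GENCODE M21 calls Mir148a, Mir148b and Mir152. These are 3 of the 2202 microRNA genes in the count tables, and each matched 1 identifier in both tables. The muscle came from male B6CASTF1/J mice aged 36 days, hybrids of the laboratory strain C57BL/6J and the wild-derived strain CAST. The labels give no treatment, transgene or deletion. The 2 small RNA libraries, replicates 1 and 2, form 1 group. Their descriptions name different males but their donor identifier is the same, so reading them as 2 animals is an assumption made throughout. Values were compared among the members, with other microRNA genes and between the animals. Counts refer to reads on the gene's own strand. CPM means a gene's count per 1000000 such reads of its library, and all SDs are over n = 2.

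MicroRNAs are cut from hairpin transcripts into short arms, named 5p and 3p by the side of the hairpin. An arm guides the silencing complex to messenger RNAs, mainly through its seed, bases 2 to 8 counted from the 5′ end. The miR-148 and miR-152 family is known for its action on the DNA methyltransferase Dnmt1, which copies methylation marks onto newly made DNA. Mir148a is also known as an abundant liver microRNA that acts on the low-density lipoprotein receptor. In cultured muscle precursor cells it has been described as promoting differentiation by acting on the kinase Rock1.

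The 3p arms are shown first, because a shared seed is what defines the family. The seed is in capitals, and the sequences are RefSeq entries on build GRCm38.p6.
miR-148a-3p: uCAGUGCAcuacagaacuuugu
miR-148b-3p: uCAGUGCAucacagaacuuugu
miR-152-3p: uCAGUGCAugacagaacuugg
All 3 carry the same 7 seed letters, and they differ behind the seed. Compared base by base from the 5′ end, miR-148a-3p and miR-148b-3p are identical at 20 of 22 positions. The substitutions from miR-148a-3p to miR-148b-3p are C9U and U10C. From miR-148a-3p to miR-152-3p they are C9U, U10G and U20G, with 18 of 21 positions identical. From miR-148b-3p to miR-152-3p they are C10G and U20G, with 19 of 21 identical.

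The 5p arms are less alike than the 3p arms, which is why they are set beside them, again with bases 2 to 8 in capitals.
miR-148a-5p: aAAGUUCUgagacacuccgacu
miR-148b-5p: gAAGUUCUguuauacacucaggcu
miR-152-5p: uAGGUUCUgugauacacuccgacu
The miR-148a-5p and miR-148b-5p arms share their bases 2 to 8, and miR-152-5p does not. Read from the 5′ end, miR-148a-5p matches miR-148b-5p at 13 of 22 positions and miR-152-5p at 12 of 22. The deposited tables give 1 count per hairpin, so reads of the 5p and 3p arms cannot be told apart in any value given here.

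The hairpins show where both arms lie, with the arms in capitals. Whether a read could belong to more than 1 of them bears on every count.
Mir148a: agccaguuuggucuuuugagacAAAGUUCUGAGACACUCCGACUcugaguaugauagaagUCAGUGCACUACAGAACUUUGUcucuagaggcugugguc
Mir148b: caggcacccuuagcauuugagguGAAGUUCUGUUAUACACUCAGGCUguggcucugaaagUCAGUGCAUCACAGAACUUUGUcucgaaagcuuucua
Mir152: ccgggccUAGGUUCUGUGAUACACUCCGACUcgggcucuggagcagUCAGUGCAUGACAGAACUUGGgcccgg
The longest stretch that Mir148a or Mir148b shares with any of 2201 other annotated hairpins, on either strand, is 15 bases, and each shares it with the other. For Mir152 the longest is 13 bases. The first 18 bases of each of the 6 arms were found in no other gene among 141767 annotated transcripts. This search covers transcripts and not the genome. Reads aligned to several loci made up 70.4% of replicate 1 and 73.3% of replicate 2, and the layout of the tables implies that no gene counts them.

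Mir148a (ENSMUSG00000065505.1) lies on the minus strand of mm10, at chr6:51269812-51269910, and no annotated gene spans it. The nearest other gene that is not a microRNA is the long noncoding RNA Gm32479, on the same strand and 13622 bases away. Mir152 (ENSMUSG00000065515.1) lies at chr11:96850393-96850465 on the plus strand, 523 bases from the start of Copz2. Mir148b (ENSMUSG00000065560.1) lies at chr15:103285125-103285221 on the plus strand, 12411 bases from the start of Copz1. Copz1 and Copz2 are paralogues that encode the zeta subunit of the COPI coat, which carries cargo between Golgi and endoplasmic reticulum.

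The places of Mir152 and Mir148b within these host genes are alike. Both lie on the host's strand, in intron 1 of 8 of the protein-coding transcript that is first by name among those spanning them. In the 3 spanning transcripts of Copz2 and the 4 of Copz1, no annotated exon overlaps the member. In these chosen transcripts the introns differ in length, 676 bases in Copz2 and 16159 bases in Copz1. Genes of the Nfe2 family of transcription factors, looked up by name, also lie on the chromosome of each member, at differing distances. Nfe2l3 is 162.8 kb from Mir148a, Nfe2l1 is 20.4 kb from Mir152 and Nfe2 is 26.7 kb from Mir148b. Leaving hosts aside, Nfe2l3 and Nfe2l1 are the nearest protein-coding genes to Mir148a and Mir152. For Mir148b, Gpr84 is nearer than Nfe2, at 23014 bases.

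No member has a close microRNA neighbour. The nearest annotated microRNA genes are Gm22914 at 351722 bases from Mir148a, Mir8103 at 213303 bases from Mir152 and Mir6963 at 65234 bases from Mir148b. Gm22914 and Mir6963 had 0 counts in both libraries. With 3 counts taken as the upper limit of a 0, this leaves room for 0.726 CPM (replicate 1) and 0.932 CPM (replicate 2). Mir8103 had 2 and 3 counts.

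The members were detected in both animals. Replicate 1 held 1829 counts of Mir148a and replicate 2 held 905, which are 442 CPM (exact Clopper-Pearson 95% interval 422 to 463) and 281 CPM (263 to 300.0). Mir152 had 1532 and 815 counts, or 371 CPM (352 to 390) and 253 CPM (236 to 271). Mir148b had 485 and 327 counts, or 117 CPM (107 to 128) and 102 CPM (90.9 to 113). Replicate 1 was higher than replicate 2 for each member on this scale. The intervals of the animals do not overlap for Mir148a and Mir152, and they overlap for Mir148b. They cover counting error only. Since reads copied by PCR are not independent molecules, they can be too narrow even for that.

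**Figure D1:**
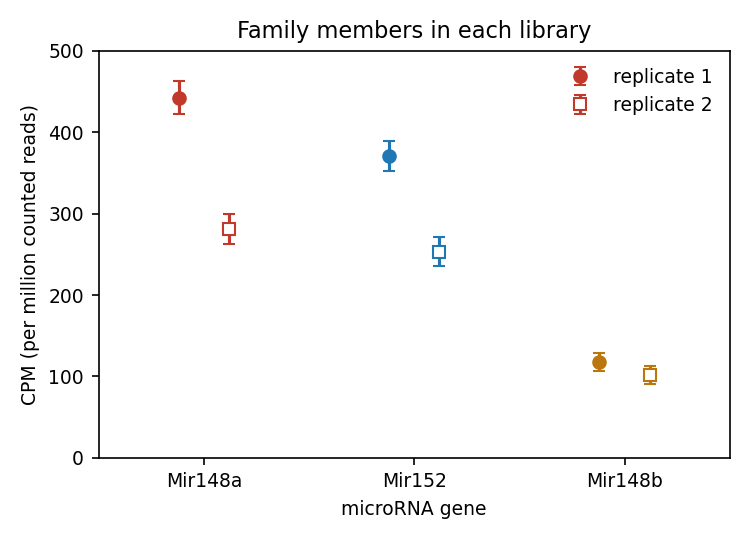
Level of each family member, in CPM on a linear axis from 0. Filled circles are replicate 1, open squares replicate 2, and bars the exact 95% counting interval. Mir148a and Mir152 sit between 253 and 442 CPM with replicate 1 above replicate 2, and Mir148b sits at 117 and 102 CPM.

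Mir148a had the highest mean of the family at 362 ± 114 CPM, followed by Mir152 at 312 ± 83.0 CPM and Mir148b at 109 ± 11.1 CPM. The means of Mir148a and Mir152 differ by less than either SD. Mir148b lies below both in each animal, and its highest value, 117 CPM, is under the lowest value of the others, 253 CPM. Counts were not divided by gene length, since a read comes from an arm of 21 to 24 bases whichever hairpin it derives from.

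The family stands in the middle of the detected microRNA genes by counted reads. Reads that align to several loci would be in no count, so microRNAs with several copies can rank too low here. Among all genes Mir148a held place 103 by mean CPM, Mir152 place 109 and Mir148b place 159. Of 295 genes with at least 10 counts in both libraries, 192 (65.1%) had a lower mean than Mir148a, 186 (63.1%) a lower mean than Mir152 and 136 (46.1%) a lower mean than Mir148b. Within the libraries, Mir148a was in place 95 in replicate 1 and place 110 in replicate 2. Mir152 was in places 103 and 114, and Mir148b in places 161 and 157. Together the 3 genes took 0.0930% of counted reads in replicate 1 (exact 95% interval 0.0901 to 0.0960) and 0.0636% in replicate 2 (0.0609 to 0.0664).

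**Figure D2:**
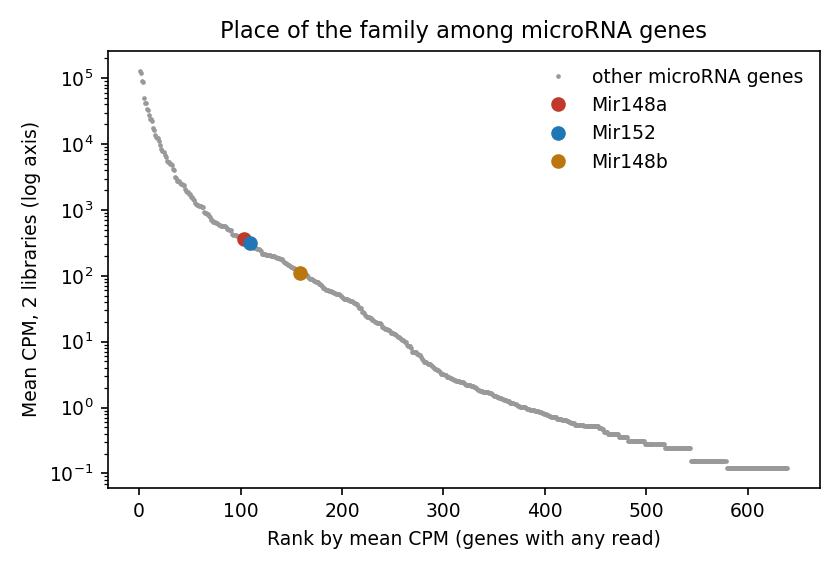
Mean CPM over the 2 libraries (log axis) against rank, for every microRNA gene with any read. Grey points are other genes, and coloured points are Mir148a at place 103, Mir152 at place 109 and Mir148b at place 159.

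For scale, Mir206, a microRNA of skeletal muscle, had 25834 CPM in replicate 1 and 28690 CPM in replicate 2. All 10 loci of a fixed list of striated muscle microRNAs had reads in both libraries. The myosin-intron microRNA Mir208b, at 103 and 116 CPM, was within the range of Mir148b. It was named after its values were seen.

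Ratios within a library do not depend on how libraries are scaled. The log2 ratio of Mir148a over Mir152, from counts + 0.5, was 0.26 in replicate 1 and 0.15 in replicate 2, a mean of 0.20 ± 0.07 or 1.15-fold. Mir148a is thus the higher in both animals by a small margin, and the lower bound of the counting interval in replicate 2 is 0.013. Mir148a exceeded Mir148b by 1.91 in replicate 1 and 1.47 in replicate 2, a mean of 1.69 ± 0.32 or 3.23-fold. Mir152 exceeded Mir148b, the other member within a Copz gene, by 1.66 and 1.32, a mean of 1.49 ± 0.24 or 2.80-fold. Each ratio kept its sign in both animals. An exact two-sided sign-flip permutation test gave p = 0.5 for each of the 3 pairs, also after Benjamini-Hochberg adjustment over them, which is the smallest p that 2 libraries allow.

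The make-up of the family was compared between the animals by each member's share of its reads. Mir148b, the Copz1 member, took 12.6% of the family's reads in replicate 1 (exact 95% interval 11.6 to 13.7) and 16.0% in replicate 2 (14.4 to 17.6). These intervals do not overlap. Mir148a took 47.6% (46.0 to 49.1) and 44.2% (42.0 to 46.4), with intervals that overlap at their ends, which does not show that the shares are equal. Mir152, the Copz2 member, took 39.8% in both, with intervals of 38.3 to 41.4 and 37.7 to 42.0. With 1 library per animal, a difference between animals cannot be told apart from one between library preparations. The log2 ratio of Mir148a over Mir148b differed by −0.45 as replicate 2 minus replicate 1, and that of Mir152 over Mir148b by −0.34.

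**Figure D3:**
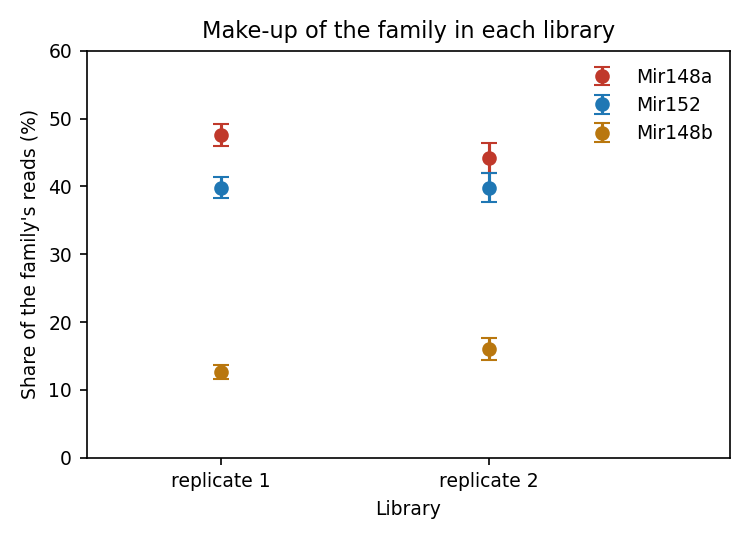
Share of the family's reads taken by each member in each library, in percent, with exact 95% counting intervals as bars. Mir152 is at 39.8% in both libraries, and the interval of Mir148b is 11.6 to 13.7% in replicate 1 and 14.4 to 17.6% in replicate 2.

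The animals were then compared gene by gene with TMM scaling, which sets the libraries to a common level after trimming the genes that differ most. The log2 ratio of replicate 2 over replicate 1, from scaled CPM + 1, was −0.49 for Mir148a (counting interval −0.60 to −0.37), which is 1.40-fold lower in replicate 2. It was −0.38 for Mir152 (−0.51 to −0.26), or 1.30-fold lower, and −0.04 for Mir148b (−0.25 to 0.16). These ratios set 1 animal against 1 other and have no replicate check.

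The members' differences were then set beside those of all genes. On this scale 3 of 3 members had a ratio below 0, as had 55.9% of the 261 genes whose mean reached 10 CPM. Past 1.2-fold lower were 2 of 3 members, Mir148a and Mir152, and 24.9% of the 261 genes. Past 2-fold lower were 0 of 3 members and 4.98% of the genes (5.36% past 2-fold in either direction), and no test was run on these ratios. The members' median was −0.38, and the median of all 261 genes was −0.05. A larger difference in either direction than that of Mir148a was seen in 31 genes (11.9%), than that of Mir152 in 60 genes (23.0%) and than that of Mir148b in 236 genes (90.4%). Of the 165 genes whose mean reached 100 CPM, 2 had a lower ratio than Mir148a, 14 a lower ratio than Mir152 and 79 a lower ratio than Mir148b.

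The scaling moves all of these ratios together. Scaled to the total count, the median of the 261 genes was −0.21, the members' ratios were −0.65, −0.55 and −0.21 in the order Mir148a, Mir152 and Mir148b, and 79.7% of all genes were lower in replicate 2. With DESeq2 size factors the median was 0.0026, 2 of 3 members were lower against 49% of all genes, and Mir148b turned to 0.012. Taken relative to the median gene, Mir148a was at −0.44 under each of the 3 scalings. Mir152 was at −0.33 by TMM, −0.34 by total count and −0.33 by DESeq2, and Mir148b was between 0.0064 and 0.0098.

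**Figure D4:**
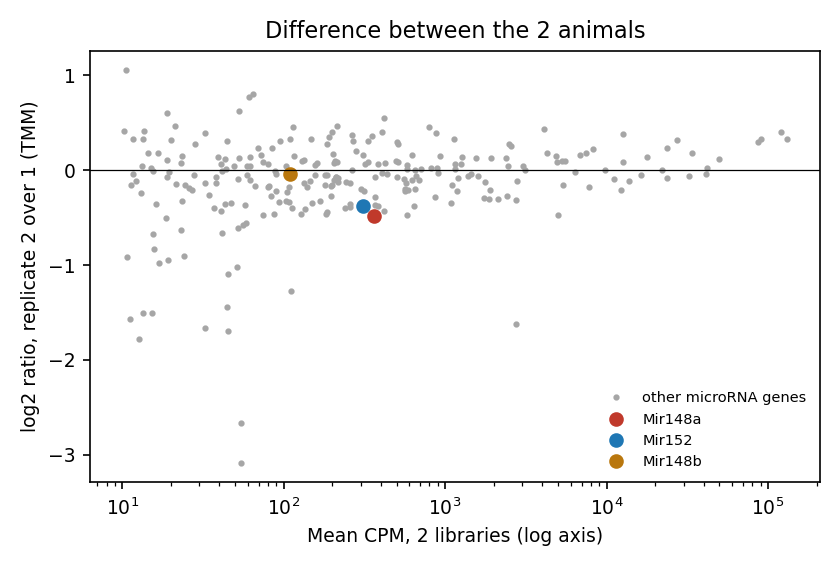
Log2 ratio of replicate 2 over replicate 1 (TMM scaling) against mean CPM (log axis) for the 261 genes of at least 10 CPM. Mir148a at −0.49 and Mir152 at −0.38 lie in the lower part of the cloud at their abundance, and Mir148b at −0.04 lies near the line at 0.

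Genes whose level over the 2 libraries was most like each member were found by Euclidean distance of log2(CPM + 1). Nearest to Mir148a was Mir223, a microRNA of myeloid blood cells, at a distance of 0.10, with 436 and 300.3 CPM. Mir329 (0.15) and Mir542 (0.15) followed. Nearest to Mir152 were Mir493 (0.12) and Mir181d (0.14), and in the third place Mir148a itself (0.30). Nearest to Mir148b were Mir673 (0.10), Mir339 (0.14) and Mir188 (0.16). With 2 libraries this measure mostly reflects abundance.

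The family's seed letters also occur in other microRNAs, at other positions. Of 1738 mature sequences in the RefSeq table, 3 (0.173%) carry CAGUGCA at bases 2 to 8, and these are the members' 3p arms. In 7 others (0.403%) the same letters stand at bases 1 to 7, 1 base nearer the 5′ end. These include miR-130a-3p and miR-301a-3p, shown here with the letters shared with the family in capitals.
miR-130a-3p: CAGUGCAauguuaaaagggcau
miR-301a-3p: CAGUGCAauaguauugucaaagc
A further 7 (0.403%) hold the letters deeper in the sequence, at a first base between 4 and 12. A match of letters is a description and not a target site.

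Levels are given for a fixed list of 6 miR-130 and miR-301 relatives, which is not the same set. It leaves out Mir6341 and Mir6389, which matched at bases 1 to 7 and had 0 counts in both libraries. It also holds Mir301b, which is not among the matches. Whether the RefSeq table has an entry for Mir301b was not checked, so this does not show that its sequence lacks the letters. Mir130a had 3193 CPM in replicate 1 and 2293 CPM in replicate 2, above every member of the miR-148 and miR-152 family in both animals. Mir301 had 66.3 and 38.5 CPM and Mir130b 26.6 and 11.8 CPM, both below Mir148b in each animal. Mir301b had 6 and 2 counts, and Mir130c and Mir721 had 0 in both. Summed, the list of 6 genes took 0.329% of counted reads in replicate 1 and 0.234% in replicate 2. Its 3 genes of at least 10 CPM were all lower in replicate 2, at −0.31 for Mir130a, −0.60 for Mir301 and −0.95 for Mir130b, where 55.9% of all genes were lower.

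Other microRNAs described as acting on DNA methyltransferases split between the directions. Of 7 such genes, 2 were lower in replicate 2 by TMM, where 55.9% of all genes were lower. By total count 4 were lower, against 79.7% of all genes, and by DESeq2 size factors 1 was lower, against 49%. Their median log2 ratio by TMM was 0.16. The miR-29 genes, known for their action on Dnmt3a and Dnmt3b, were led by Mir29a at 2469 and 2627 CPM (log2 ratio 0.26) and Mir29c at 1292 and 1206 CPM (0.07). Mir342 stood at 623 and 618 CPM (0.16). Mir126a, better known from endothelium, is also in that list and had 85413 and 95833 CPM. Each of these 4 exceeded all members of the family in both animals. Mir29b, listed as Mir29b-1 and Mir29b-2, was not among them, and reads that align to both loci would be in no count.

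Among microRNAs known for cholesterol and lipid regulation, the levels of Mir148a were close to those of Mir223. Mir27b was highest in this list of 8 genes, at 10358 and 9250 CPM, followed by Mir128-1 at 857 and 774 CPM, Mir223, and Mir30c-2 at 180 and 204 CPM. Of its 7 genes of at least 10 CPM, 2 were lower in replicate 2 by TMM, against 55.9% of all genes, and 5 by total count, against 79.7%. Their median was 0.02 by TMM. Mir128-1 and Mir128-2 are both in this list, as are Mir30c-2 and Mir30c-1. Reads that align to both copies of a pair would be in no count. The levels of these loci, and so their order, can understate the microRNAs.

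**Figure D5:**
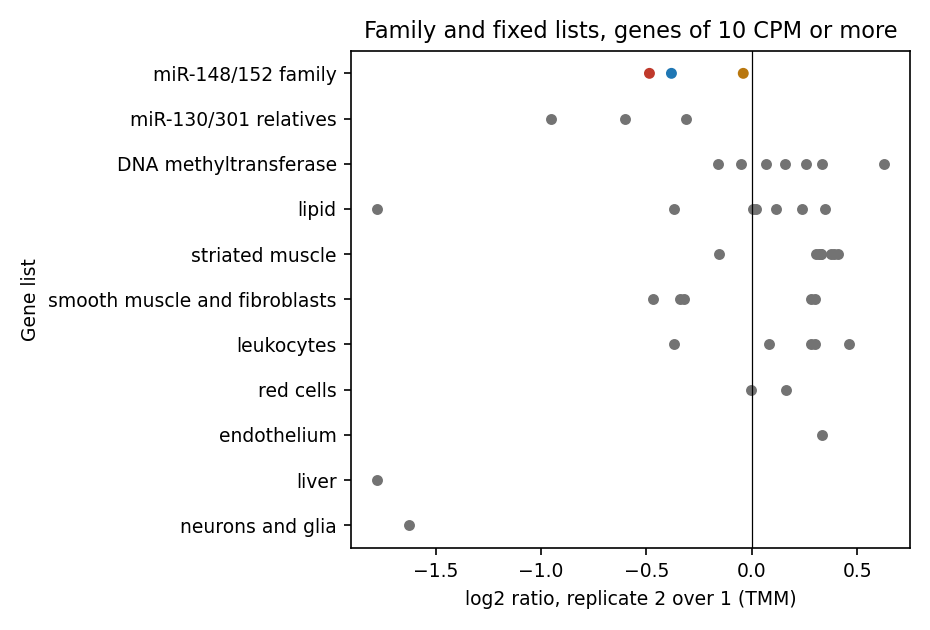
Log2 ratio of replicate 2 over replicate 1 (TMM scaling) for genes of at least 10 CPM, by list, with 1 point per gene. Family members are coloured red for Mir148a, blue for Mir152 and ochre for Mir148b. The 3 miR-130 and miR-301 relatives lie between −0.95 and −0.31, and 1 of 8 striated muscle genes lies below 0, where 55.9% of all genes do.

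Markers of some other cell types also differed between the animals, and their part in the family's values was not tested. In bulk tissue, fewer cells of a type and less RNA per cell cannot be told apart. The liver marker Mir122 had 85 counts in replicate 1 and 15 in replicate 2 (20.6 and 4.66 CPM), far below Mir148a in both. The neuron and glia list summed to 4297 and 1244 CPM, almost wholly Mir338, with 3 of its 9 genes read in both libraries and the 6 loci of Mir9 and Mir124a at 0. Each of these is encoded at 3 loci, so reads that align to all copies would be in no count, and their 0 does not show absence. Smooth muscle and fibroblast genes summed to 86700 and 94619 CPM, and nearly all of this was Mir143. Of the 5 genes of at least 10 CPM, Mir143 (log2 ratio 0.30) and Mir145a (0.28) were higher in replicate 2 and 3 were lower, where 55.9% of all genes were lower. Those 3, like the other pair named after their values were seen, were Mir214 (−0.34), Mir199b (−0.47) and Mir199a-2 (−0.32). Mir199a-1, Mir199a-2 and Mir199b are separate loci of this list, so reads that align to several of them would be in no count. The sum of the list can therefore understate miR-199.

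The sums of the other marker lists follow. The 5 leukocyte genes, all detected, summed to 2326 and 2425 CPM, the 2 red cell genes to 405 and 394 CPM, and the endothelial Mir126a is given above. By TMM, 1 of the 5 leukocyte genes, Mir223 at −0.37, was lower in replicate 2, where 55.9% of all genes were lower. The 10 striated muscle genes summed to 27374 and 30448 CPM, nearly all of it Mir206. Mir1a and Mir133a are each listed at more than 1 locus, so reads that align to several would be in no count. The sum can therefore understate these microRNAs. Of the 8 striated muscle genes with at least 10 CPM, 1 was lower in replicate 2 by TMM, where 55.9% of all genes were lower. No gene of these lists is a member of the miR-148 and miR-152 family.

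The strand of the reads was the same for every member. Mir148a, Mir152 and Mir148b had 0 reads on the opposite strand in both libraries. With 3 counts taken as its upper limit, such a 0 allows 0.164% of the same-strand count for Mir148a in replicate 1. For Mir148b in replicate 2 it allows 0.917%, and these are the extremes of the 6 values. The column that ignores strand held the same counts for all 3.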

How the data were processed

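MicroRNA-seq of 2 gastrocnemius libraries was used, 1 per animal. The deposited values are whole-number read counts per microRNA gene in 3 columns (ignoring strand, same strand, opposite strand). Reads were counted on mm10 with annotation M21, per the deposited file descriptions. For aligner, counter and trimming, no program is named in the sources used here. The 4 rows naming no gene stayed out of library sizes, which were 4134880 and 3219740 counted reads (21.0% and 19.2% of all reads). The labels describe different males but give both 1 donor identifier, so 2 animals are an assumption. Symbols and positions came from GENCODE M21, and all 3 members matched RefSeq sequences of GRCm38.p6.

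CPM, exact intervals and ratios were computed with Python 3.11.15 and SciPy 1.17.1, TMM factors with edgeR 4.0.16 and size factors with DESeq2 1.42.0. TMM scaling and the ratio between libraries were also computed on simulated counts, with code separate from that which gave the ratios reported here. With 1 group no test between conditions exists. All 3 members are named, with genes of the same seed, the 3 nearest genes per member, neighbours and hosts, and up to 4 genes per list. Cell marker lists are given by sums. The members and lists were chosen with earlier results of these data known. Alternatives changed the column, scaling, library size, pseudocount, minimum and replicates. CAST alleles that differ from mm10 can lower counts and are not analysed here.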

Additional observations from a re-analysis of the deposited data

How the results depend on the processing

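Levels in CPM follow the library size chosen. With the column that ignores strand, whose totals are smaller, means rose to 480 CPM for Mir148a, 414 for Mir152, 146 for Mir148b and 1040 for the family. With all reads as library size they were 73.4, 63.1, 22.0 and 159. Without the most abundant gene in the library size, Mir148b was at 126 CPM. With 1 replicate left out at a time, levels ranged from 281 to 442 CPM for Mir148a, 253 to 371 for Mir152, 102 to 117 for Mir148b and 636 to 930 for the family. TMM and DESeq2 size factors moved no mean level by more than its SD. Both shift the libraries in opposite directions, so a mean over them was bound to change little. The log2 ratios between members kept their sign in all 15 alternatives. An equal pseudocount, or the column that ignores strand and holds the same counts, could not change a sign. With 1 replicate left out, which gives each library's own ratio, they ranged from 0.15 to 0.26, 1.47 to 1.91 and 1.32 to 1.66. The log2 ratios between animals for Mir148a and Mir152 kept their sign in the 6 alternatives run for each, where a change of pseudocount could not alter it. They were −0.65 and −0.55 by total count and −0.77 and −0.66 by all reads. That of Mir148b was −0.32 by all reads and turned to 0.012 with DESeq2 size factors, which is within its counting interval. The 14 genes past 2-fold in either direction became 2 with a minimum of 100 CPM and 41 with none. Of the 9 nearest genes, 5 were also nearest by difference of means. No paired analysis between conditions was possible because there is 1 group. Mir148b has the fewest counts and the widest counting interval for the difference between animals. That interval includes 0, and the ratio of Mir148b by TMM is itself −0.04.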

Other observations

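Among the 165 genes whose mean reached 100 CPM, 2 had a lower log2 ratio of replicate 2 over replicate 1 than Mir148a. These were Mir338, known from myelinating glia, at −1.63 and Mir138-1 at −1.27. Directly above Mir148a at −0.49 came Mir196b at −0.47, with 25217 and 12635 counts. Mir15b (−0.47) and Mir376b (−0.46) came next. These 5 genes were chosen after their values were seen, and the ratios set 1 animal against 1 other.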
